A study of Mus musculus with 7 samples.

Results

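Expressed Zfp genes were followed in mouse embryonic stem cells after knockdown of Mettl3, the catalytic subunit of the enzyme that places N6-methyladenosine on RNA. A gene was a member if its single symbol on the array platform was Zfp plus digits, with or without a letter. It needed at least 3 probe sets whose mean over the 7 arrays was above 6.02 on the log2 scale. Members were then selected on the mean gene value over the luciferase arrays, which had to be above 8. Zfp42 and Zfp809 were left out by the rule. Of 287 Zfp genes on the platform, 267 had enough probe sets, and 158 of these passed the level threshold, out of 16355 genes tested in all. The other 109 lay at or below the threshold.

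The cells were J-1 embryonic stem cells infected with lentivirus, profiled on Affymetrix mouse exon arrays. Controls carried a hairpin RNA against luciferase (3 arrays), a gene that mouse cells lack. The other groups carried Mettl3 hairpin 1 (2 arrays) or Mettl3 hairpin 2 (2 arrays). All groups share the line and the infection, no uninfected cells were analysed here, and the labels used here give no time after infection. Whether arrays of one group hold separate cultures is not in the labels, so each p-value reflects array-to-array spread that may be only technical, and with so few arrays precision is low.

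Most Zfp proteins carry rows of C2H2 zinc fingers, small zinc-binding folds that read DNA and in some cases RNA. Many of them also have a KRAB domain, which recruits Trim28 and, through it, heterochromatin enzymes, and so silences transposons and imprinted alleles in embryonic stem cells. KRAB zinc finger genes lie in clusters of related copies, so short array probes may take signal from a relative, and values of clustered members are uncertain for that reason.

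RefSeq promoters (build GRCm38.p6, 250 bases before to 50 after a start) were matched by symbol for 128 of the 158 members, 164 promoters in all. The median GC content of these was 57.5%, against 61.3% for promoters of all genes above 8 and 52.7% for all 32817 promoters. In a search for 16 short motifs on both strands, chosen after the sequences had been seen, TACANNTCC was found in 21 member promoters (12.8%), which belong to 20 genes. It was found in 6.39% of promoters of genes above 8 and in 4.43% of all promoters. These letters are the middle of the element read by the zinc finger protein Zfp143, which was not analysed here. The GC box GGGCGG was found in 50.6% of member promoters, 65.5% of those of genes above 8 and 35.6% of all, and the Ets-type letters ACTTCCGG in 12.8%, 9.17% and 3.89%. A match is a description of letters and was not tested as a site.

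The following windows show TACANNTCC in capitals, read on the strand named, with 10 bases on either side, because this motif recurs in genes of several clusters. They belong to the members with the highest luciferase means among the 20, followed by Zfp74 and Zfp383, which are neighbours on chromosome 7. In all but Zfp296 the capitals are preceded by ac and followed by c, and 19 of the 20 genes share these flanks. Zfp317 held the motif in 2 places.
Zfp296, chr7:19577173-19577201, plus strand: acaatttgcaTACAGGTCCctgggcagcg
Zfp219, chr14:52019701-52019729, plus strand: cacccgagacTACAAATCCcaggatgccc
Zfp1, chr8:111643408-111643436, minus strand: ggtgtaggacTACAATTCCcataatgcct
Zfp84, chr7:29768520-29768548, minus strand: tatagtggacTACATTTCCcagaaggcgg
Zfp692, chr11:58307013-58307041, plus strand: taaggctaacTACAATTCCcggcaggctt
Zfp317, chr9:19621859-19621887, plus strand: aactagaaacTACATTTCCcataaaccct
Zfp317, chr9:19621903-19621931, plus strand: acgtagaaacTACATTTCCcataaaccat
Zfp146, chr7:30169852-30169880, plus strand: gactttggacTACACTTCCcacaaggcac
Zfp74, chr7:29954097-29954125, plus strand: tgctttgaacTACATTTCCcagagccctt
Zfp383, chr7:29908468-29908496, plus strand: aatcgcggacTACATTTCCcagaagcgtt

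Promoters were matched for 3 of the 5 members that rose after knockdown, described further on. The 250 bases before the start are printed for Zfp280c, the member with the largest change, and for Zfp618, because they differ widely in base content. Capitals mark GC boxes on either strand. Zfp280c had none and 54.8% GC. Zfp618 had 4 and 88.8% GC. Zfp418, the third, which is not printed, had 1 and 43.2% GC.
Zfp280c, chrX:48594620-48594869, minus strand: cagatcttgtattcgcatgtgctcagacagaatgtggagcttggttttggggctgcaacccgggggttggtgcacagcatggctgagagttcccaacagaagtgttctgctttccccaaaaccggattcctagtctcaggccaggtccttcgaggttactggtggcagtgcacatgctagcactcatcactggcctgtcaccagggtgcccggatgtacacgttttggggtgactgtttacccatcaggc
Zfp618, chr4:62965317-62965566, plus strand: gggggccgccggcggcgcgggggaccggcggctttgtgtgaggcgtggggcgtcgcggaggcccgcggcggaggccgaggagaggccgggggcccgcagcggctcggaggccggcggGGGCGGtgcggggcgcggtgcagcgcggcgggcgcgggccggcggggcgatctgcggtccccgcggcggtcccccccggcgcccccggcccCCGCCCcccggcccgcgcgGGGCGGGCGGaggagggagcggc

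The luciferase means that chose the members ran from 8.001 to 12.58 on the log2 scale, with a median of 8.97. By this mean the first 5 were Zfp57, Zfp106, Zfp825, Zfp296 and Zfp462, and 21 members were above 10. Probes of different genes bind with different strength, so this order describes the choice and is not an order of RNA amounts. The median luciferase mean over all genes tested was 8.20, and 84 members lay between 8 and 9. A mean above 8 therefore does not show that a gene is well expressed. Just above the threshold lay Zfp185 (8.001), Zfp40 (8.06) and Zfp618 (8.06), and just below it Zfp184 (7.99), Zfp189 (7.97) and Zfp438 (7.96). The median SD of a member over the 3 luciferase arrays was 0.11.

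Mettl3 itself was lower on all 4 knockdown arrays, as the labels say. Its gene values were 10.38, 10.46 and 10.14 on the luciferase arrays, 8.97 and 8.67 with hairpin 1, and 8.71 and 8.66 with hairpin 2, a log2 difference of -1.57 (adjusted p 0.000116, limma). All 10 embryonic stem cell markers listed were measured, with luciferase means from 11.27 to 13.37. Of 10 fibroblast feeder markers 9 were measured, with luciferase means from 6.57 to 7.93, and their mean per array was 7.34 to 7.41 with luciferase, 7.31 to 7.41 with hairpin 1 and 7.20 to 7.23 with hairpin 2. In neither list did a marker pass the test with limma, where 7.89% of all genes did. An unadjusted p below 0.05 was seen for 1 and 2 markers (24.2% of all genes). The median differences of the lists were -0.06 and -0.13. The part of feeder cells in the differences given here was not tested. In such bulk RNA, fewer cells of a type and less RNA per cell cannot be told apart.

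On these arrays, most members stayed close to their control level after knockdown of Mettl3. Against luciferase, the mean of both hairpins was higher for 5 of 158 members at an adjusted p below 0.05 in limma: Zfp280c, Zfp618, Zfp418, Zfp609 and Zfp593. That is 3.16% of members, against 5.52% of all 16355 genes and 5.46% of the 8839 genes above 8. None fell, against 2.37% of all genes and 2.4% of those above 8. At an unadjusted p below 0.05 in limma, 6 members were lower and 31 higher (3.8% and 19.6%). These shares were 9.69% and 14.5% over all genes, and 8.1% and 16.2% over genes above 8. The luciferase arrays both chose the members and serve as the control here.

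The differences of the other members were small. The median log2 difference over the 158 was 0.08, with the middle 80% between -0.12 and 0.26. It was 0.00 over all genes and 0.03 over genes above 8. A positive difference was seen for 109 members (69%), against 50.1% of all genes and 57% of genes above 8. The 95% interval lay within 1 log2 unit of zero, a 2-fold change, for 157 of 158 members, Zfp280c being the exception. On 26 members (16.5%) all 4 knockdown arrays were above all luciferase arrays, against 13.4% of all genes and 16.2% of those above 8. On 5 members, Zfp213, Zfp251, Zfp346, Zfp526 and Zfp532, all 4 were below (3.16%, against 8.38% and 8.16%).

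The direction of the calls depended on the scaling. With each array centred on its median gene, 2 members rose (Zfp280c and Zfp618) and 4 fell (Zfp346, Zfp526, Zfp532 and Zfp64, with -0.29, -0.23, -0.29 and -0.31 on the values as deposited), against 4.26% and 4.26% of all genes, and the member median became 0.02 while that of all genes became -0.06. Summarising a gene by the mean of its probe sets in place of the median gave 17 members that rose and 1 that fell, 11.4% of members against 17.4% of all genes. Without the filter on dim probe sets only Zfp280c of the 5 kept its call. Leaving out 1 array gave 2 members (luciferase array 3, hairpin 1 array 1 or hairpin 2 array 2), 3 (luciferase array 1 or hairpin 1 array 2), 4 or 5. The shares of all genes called with an array left out are not given here.

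**Figure D1:**
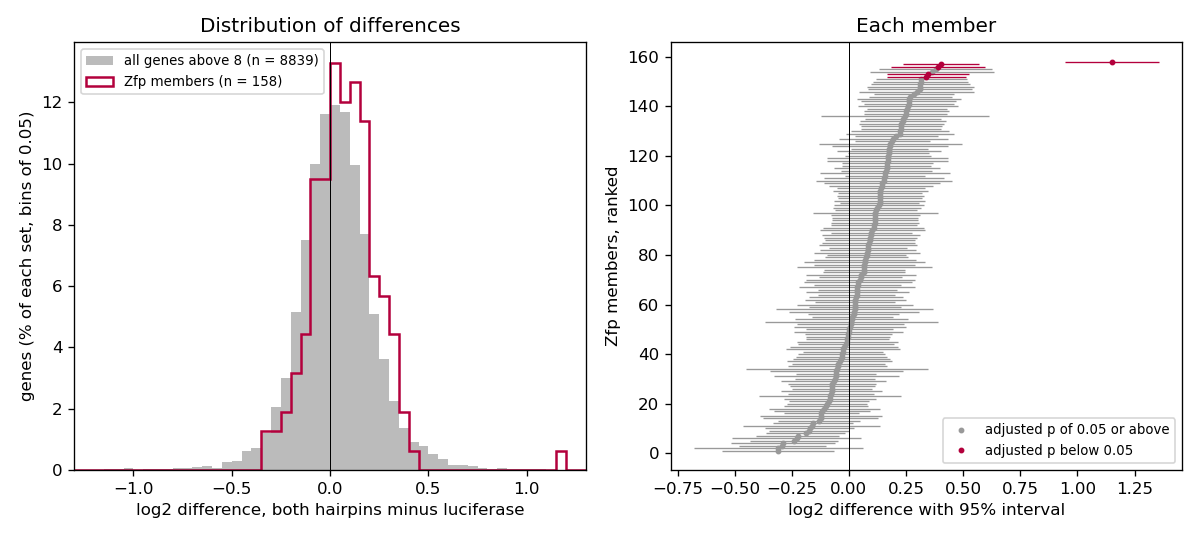
Left, the log2 difference of both hairpins from luciferase for the 158 members (outline) and the 8839 genes above 8 (grey), as a percentage of each set. Right, each member's difference (point) with its 95% interval (line), in rank order; the 5 members with an adjusted p below 0.05 are coloured, and Zfp280c stands alone at 1.15.

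Zfp280c on the X chromosome rose most. It encodes a zinc finger protein of a small family related to the fly protein suppressor of Hairy wing. Its gene values were 8.85, 8.98 and 9.18 on the luciferase arrays, 10.30 and 10.29 with hairpin 1, and 10.02 and 10.02 with hairpin 2. The 4 knockdown arrays lay above the controls by more than the whole range of the controls. Hairpin 1 lay above hairpin 2, but their direct difference of 0.28 did not pass (adjusted p 0.544, limma). The log2 difference of both hairpins was 1.15 ± 0.09 (SE; 95% interval 0.95 to 1.36), a 2.22-fold rise (adjusted p 0.000227, limma). Each hairpin alone passed the test too, with 1.29 for hairpin 1 (adjusted p 0.000363) and 1.01 for hairpin 2 (adjusted p 0.00213), both against the same luciferase arrays. All 23 of its probe sets were higher after knockdown, and the call held under the 17 alternatives tried. Of its relatives, Zfp280b had a difference of -0.06 (adjusted p 0.663, limma). Zfp280d, which is not among the 158, had 0.16 (adjusted p 0.39, limma), with overlapping arrays and 27 of 33 probe sets higher.

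Zfp618, whose human counterpart binds hydroxymethylated cytosine together with UHRF2, rose by less. Its values were 8.12, 8.01 and 8.06 with luciferase, 8.58 and 8.51 with hairpin 1, and 8.38 and 8.40 with hairpin 2. The groups did not overlap, and 18 of 20 probe sets were higher. The difference was 0.40 ± 0.07 (adjusted p 0.0107, limma), with 0.48 for hairpin 1 (adjusted p 0.014) and 0.33 for hairpin 2 (adjusted p 0.0801). The call was lost without the filter on dim probe sets, and with the replicate number as a block, crossed or not.

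Zfp593, whose yeast relative works in assembly of the large ribosomal subunit, had values of 9.61, 9.70 and 9.70 with luciferase, 9.96 and 10.02 with hairpin 1, and 10.08 and 9.96 with hairpin 2. All 4 knockdown arrays were above the controls, by similar amounts for both hairpins. The difference was 0.34 ± 0.08 (adjusted p 0.0266, limma), and neither hairpin alone passed (adjusted p 0.0723 and 0.0684). The call was lost when any 1 of the 7 arrays was left out.

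Zfp418, a KRAB zinc finger gene on chromosome 7, had values of 9.50, 9.29 and 9.33 with luciferase, 9.75 and 9.87 with hairpin 1, and 9.61 and 9.82 with hairpin 2. The knockdown arrays lay above all controls, the nearest by less than the range of the controls. The difference was 0.39 ± 0.09 (adjusted p 0.0305, limma), with 0.44 for hairpin 1 (adjusted p 0.0462) and 0.34 for hairpin 2 (adjusted p 0.124). Its 9 probe sets were all higher, but their own median difference was 0.20. The call was lost without luciferase array 2 or 3, either hairpin 1 array, or hairpin 2 array 2.

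Zfp609, a partner of the cohesin loader Nipbl and of the Integrator complex, differed most between the hairpins among these 5. Its values were 9.02, 8.89 and 9.01 with luciferase, 9.48 and 9.54 with hairpin 1, and 9.05 and 9.20 with hairpin 2. Hairpin 1 lay well above the controls and hairpin 2 just above them. The difference was 0.34 ± 0.08 for both (adjusted p 0.0294, limma), 0.53 for hairpin 1 (adjusted p 0.012) and 0.16 for hairpin 2 (adjusted p 0.424). The direct difference of 0.38 between hairpins did not pass (adjusted p 0.317). The call for both hairpins was lost when any array other than hairpin 2 array 1 was left out.

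**Figure D2:**
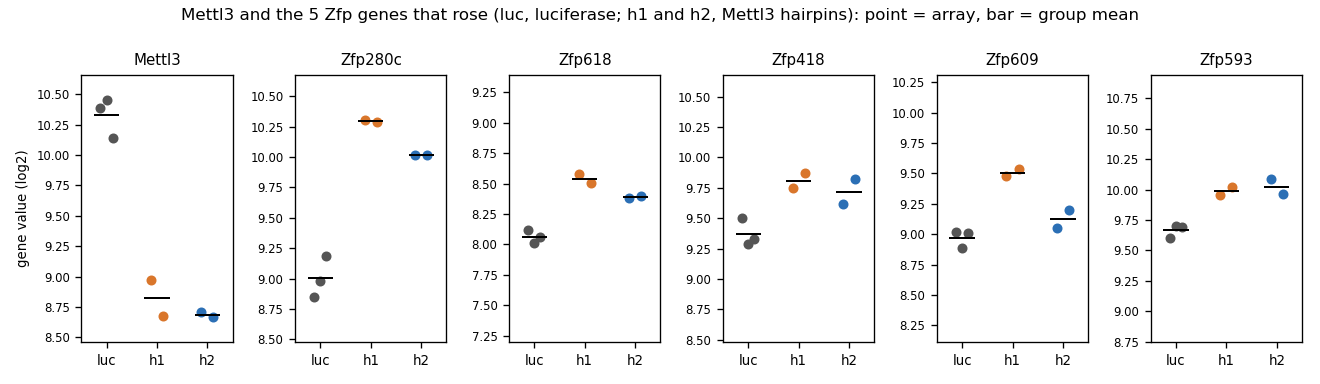
Gene values (log2) of Mettl3 and the 5 members that rose, one point per array and a bar for the group mean (luc, luciferase; h1 and h2, Mettl3 hairpins 1 and 2); the vertical axes differ in position and share one span. Mettl3 is lower on all knockdown arrays, and for each of the 5 Zfp genes all 4 knockdown arrays lie above the 3 luciferase arrays.

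Seen by hairpin, 4 members rose with hairpin 1 (Zfp280c, Zfp609, Zfp618 and Zfp418; 2.53%, against 3.97% of all genes) and 1 with hairpin 2 (Zfp280c; 0.633%, against 2.7%). None fell in limma with either, against 1.93% and 1.07% of all genes. At an unadjusted p below 0.05, 24 members were higher and 9 lower with hairpin 1 (15.2% and 5.7%, against 12.5% and 9.64% of all genes). With hairpin 2, 27 were higher and 3 lower (17.1% and 1.9%, against 11.8% and 6.9%). Over genes above 8 these shares were 13.5% and 8.96% with hairpin 1, and 12.9% and 5.02% with hairpin 2. The member medians were 0.05 and 0.11, against 0.02 and 0.04 over genes above 8. Both comparisons share the luciferase arrays. Without either hairpin 1 array, 1 member rose with hairpin 1. With the stricter probe set filter, the mean of probe sets or median polish, 15, 10 and 13 members were called for hairpin 1 and 7, 10 and 16 for hairpin 2. More of all genes were called too: with the mean of probe sets, 17.4% for both hairpins, against 7.89% with the median. The shares of all genes for each hairpin under these settings are not given here, so the counts are not a result about the members.

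The comparison of hairpin 1 with hairpin 2 does not use the luciferase means that set the level threshold, although the probe sets were kept on a mean over all 7 arrays. No member passed in limma, against 0.104% of all genes, and 12 had an unadjusted p below 0.05 (7.59%, against 8.77%). Among these 12, named after their values were seen, Zfp317 had 9.24, 9.38 and 9.18 with luciferase, 9.16 and 8.91 with hairpin 1, and 9.70 and 9.44 with hairpin 2. Hairpin 1 lay below the controls and hairpin 2 above them. The difference of -0.53 (95% interval -0.83 to -0.23) had an adjusted p of 0.267 in limma. Zfp810, with a difference of 0.39 (adjusted p 0.396), lay the other way.

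The imprint and retroelement silencing list, like the 3 role lists after it, was written with results of these data known. Of its 7 genes 6 were measured and 4 were members. None rose or fell in limma, and none had an unadjusted p below 0.05 (7.89% and 24.2% of all genes). With 6 genes such counts say little. The median difference was -0.01. Zfp57, which keeps DNA methylation at imprinted loci, had values of 12.52, 12.72 and 12.51 with luciferase, 12.39 and 12.27 with hairpin 1, and 12.43 and 12.55 with hairpin 2. Hairpin 1 lay below the controls and hairpin 2 overlapped them, and the difference was -0.17 (95% interval -0.37 to 0.02; adjusted p 0.269, limma). Zfp445, its partner in imprint maintenance, had 0.18 (-0.07 to 0.43), with overlapping arrays. Zfp568, a repressor of a placental Igf2 promoter, had 0.02 (-0.16 to 0.19), and Zfp819, linked to retroelement repression, had 0.02 (-0.18 to 0.22). Zfp932 and Zfp638 carry other platform symbols and so are no members, and their differences were -0.03 and -0.16.

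Among stem cell factors 7 of 8 genes were measured, all members. None passed in limma and 3 had an unadjusted p below 0.05 (7.89% and 24.2% of all genes). The median difference was 0.08. Zfp281, a pluripotency regulator, had -0.07 and Zfp217, a corepressor reported to bind Mettl3, had -0.03 (95% interval -0.27 to 0.22). Zfp296, a germ cell and reprogramming factor, had values of 11.31, 11.29 and 11.21 with luciferase, 11.51 and 11.49 with hairpin 1, and 11.40 and 11.45 with hairpin 2. All 4 knockdown arrays were above the controls, with a difference of 0.19 (adjusted p 0.152, limma). Zfp207, a mitotic spindle protein with stem cell splice forms, had 10.83, 10.95 and 10.80, then 11.14 and 11.06, then 11.07 and 11.23. These also did not overlap, with a difference of 0.27 (adjusted p 0.0776, limma), but 14 of its 39 probe sets were lower and their median difference was 0.08. Zfp322a, with 0.36 (adjusted p 0.101), had overlapping arrays, and Zfp462 and Zfp706 had 0.08 and 0.00. Zfp296 and Zfp322a rose when probe sets were summarised by their mean or by median polish.

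The chromatin list held 10 members, with a median difference of 0.05. None passed in limma, and 1 had an unadjusted p below 0.05 (7.89% and 24.2% of all genes). That gene was Zfp532, of a zinc finger complex with Zfp592 and Zfp687 that binds chromatin. It had 10.48, 10.53 and 10.51 with luciferase, 10.27 and 10.11 with hairpin 1, and 10.13 and 10.35 with hairpin 2. All 4 knockdown arrays were below the narrow control range, with a difference of -0.29 (95% interval -0.48 to -0.10; adjusted p 0.0686, limma); it fell with the arrays centred, and with the mean or median polish of probe sets. Its partners Zfp592 and Zfp687 lay the other way, at 0.16 and 0.18, with arrays that overlapped the controls, and both rose with median polish. Zfp335, Zfp516, Zfp518a, Zfp518b and Zfp644, subunits or partners of histone methylation or demethylation enzymes, had 0.13, 0.03, -0.16, -0.07 and 0.17, and all overlapped.

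The list for RNA, ribosome and translation held 9 measured genes, 7 of them members. Zfp593 rose, none fell, and the median difference was 0.14; 4 of the 9 had an unadjusted p below 0.05. Of all genes 5.52% rose and 24.2% had such a p. Zfp346, which binds double-stranded RNA, had 10.11, 10.09 and 9.80 with luciferase, 9.79 and 9.59 with hairpin 1, and 9.66 and 9.79 with hairpin 2. The knockdown arrays were all lower, though luciferase array 3 nearly touched them, and the difference was -0.29 (adjusted p 0.117, limma); it too fell with the arrays centred. Zfp385a, an RNA-binding partner of p53, had 0.24 (adjusted p 0.0831), with all 4 knockdown arrays higher. Zfp598, the ligase that marks collided ribosomes, had 0.08, Zfp622, a ribosome assembly factor, 0.14, Zfp830, a splicing protein, 0.17 and Zfp106, an RNA-binding protein, 0.03. Zfp36 and Zfp326 were below the level threshold.

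**Figure D3:**
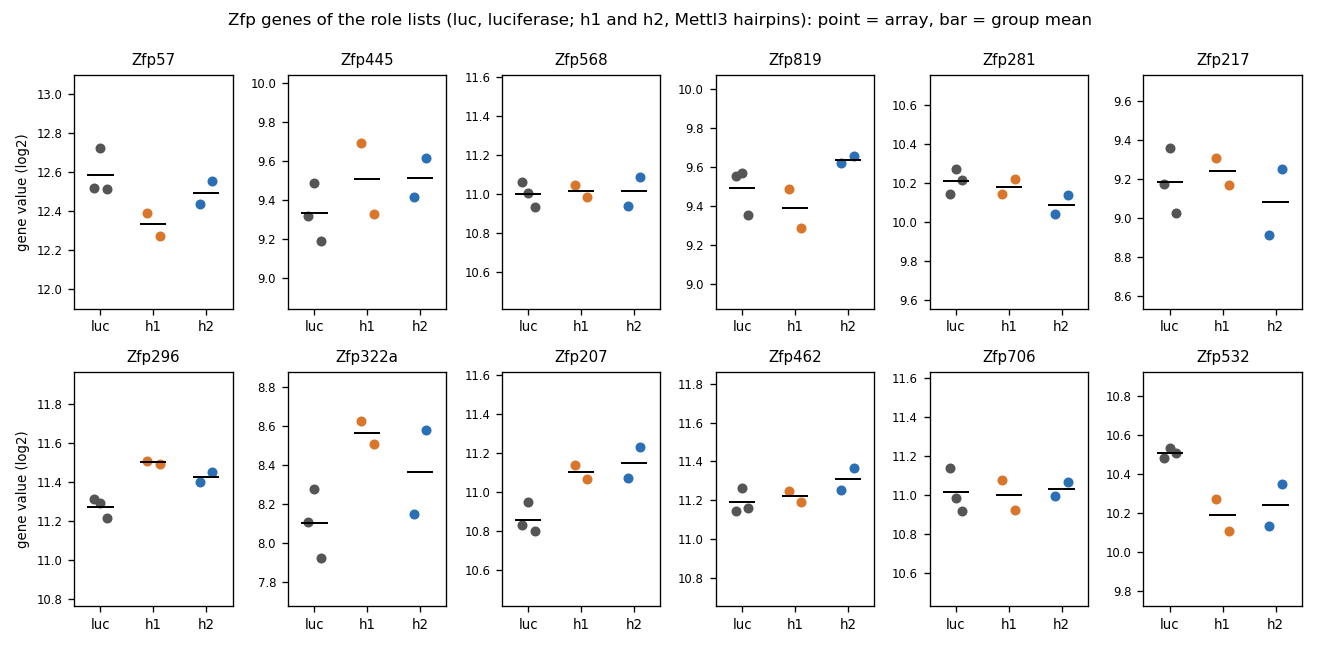
Gene values (log2) of 12 Zfp genes of the role lists, one point per array and a bar for the group mean (luc, luciferase; h1 and h2, Mettl3 hairpins 1 and 2); the axes share one span. Zfp296 and Zfp207 are higher and Zfp532 lower on all 4 knockdown arrays, and none of the 12 passed the test on these gene values.

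The partners of KRAB proteins are listed as 24 heterochromatin genes, all measured. The DNA methyltransferase gene Dnmt3b rose by 0.41 (adjusted p 0.0114, limma) and the deacetylase gene Hdac2 fell by 0.43 on the log2 scale (adjusted p 0.0382, limma), where 5.52% of all genes rose and 2.37% fell. Trim28 itself had -0.08 (adjusted p 0.583, limma) and Setdb1 0.09 (adjusted p 0.605, limma). An unadjusted p below 0.05 was seen for 7 of the 24 (24.2% of all genes), and the median difference was 0.06. Dnmt3b was lost without luciferase array 1 or hairpin 2 array 2, and with the replicate number as a block, crossed or not. Hdac2 was lost without luciferase array 1 or 2, hairpin 1 array 2, either hairpin 2 array or the filter on dim probe sets.

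By position, 34 members lay on chromosome 7, 17 on chromosome 17, 15 on chromosome 13 and 12 on chromosome 5. The median member difference was 0.10, 0.08, 0.14 and 0.07 on these, against 0.00, 0.00, 0.00 and 0.01 over all genes of each chromosome. On the X chromosome all 3 members, Zfp280c, Zfp275 and Zfp185, had positive differences. So did all 7 members on chromosome 6, all 6 on chromosome 4 and 69% of members in all. Of all genes on the X chromosome, 66 of 561 rose, against 902 of 16355 over all chromosomes. Zfp275 had 0.31 (adjusted p 0.0713, limma) and Zfp185 0.30 (adjusted p 0.141). Among coding genes, 59 members had a Zfp gene as a neighbour and 32 had another member.

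One run of neighbours on chromosome 7, chosen after its values were seen, is Zfp27, Zfp383, Zfp74 and Zfp568. Their differences were 0.23, 0.31, 0.26 and 0.02, and none passed the test. Zfp383 had 8.60, 8.48 and 8.21 with luciferase, 8.88 and 8.74 with hairpin 1, and 8.70 and 8.65 with hairpin 2. Zfp568 had 11.06, 11.01 and 10.93, then 11.05 and 10.99, then 10.94 and 11.09. Zfp383 and Zfp27 lay above the controls on every knockdown array, Zfp74 overlapped them slightly and Zfp568 did so fully. The 20 members with TACANNTCC had a median difference of 0.10 and none passed in limma, with 5 at an unadjusted p below 0.05. The 108 with a promoter and no match had 0.07, and 3 passed, with 25 at an unadjusted p below 0.05. Of all genes 7.89% passed and 24.2% had an unadjusted p below 0.05.

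**Figure D4:**
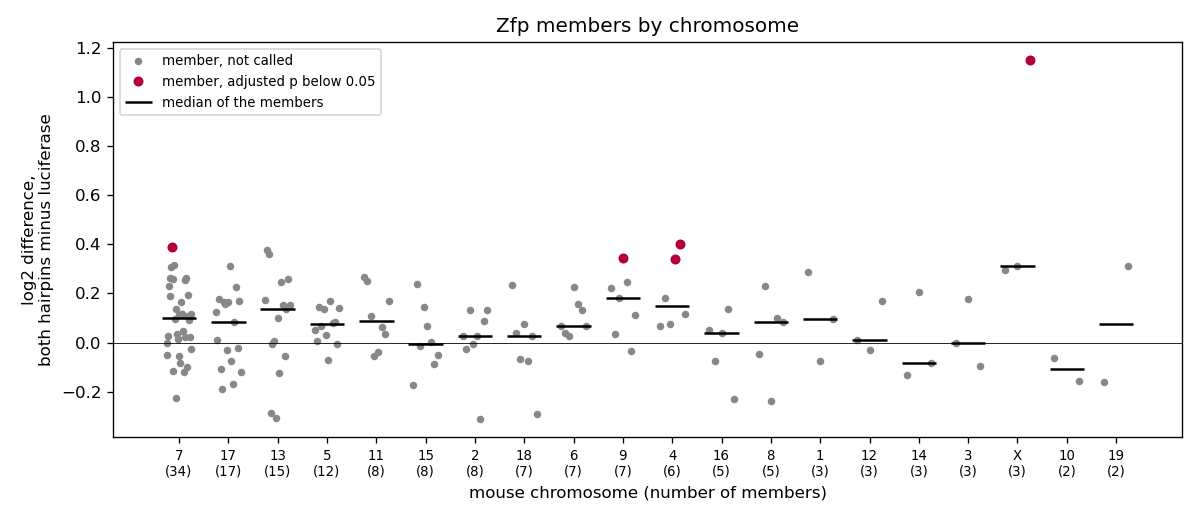
Log2 difference of both hairpins from luciferase for each of the 158 members, by chromosome (number of members in parentheses), with the median of the members as a bar and members with an adjusted p below 0.05 coloured. Most members lie between -0.3 and 0.4, and Zfp280c on X lies at 1.15.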

How the data were processed

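Total RNA was hybridised to 7 Mouse Exon 1.0 ST arrays. The values are log2 values per exon-level probe set as deposited by the authors, made with RMA (background correction, normalization and summary) in R 2.11.1, per the submitters' processing notes. Which RMA package, build and filters were used is not given in the sources here. RMA makes arrays alike in distribution, so a shift shared by most genes would not be seen.

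Of 1201338 probe sets, 311384 had 1 gene symbol and 6385 several in the platform annotation, and the latter were not used. Symbols of 45560 were updated through RefSeq (GRCm38.p6). A gene value is the median, per array, of probe sets with a mean above 6.02, for genes with at least 3. limma 3.58.1 in R 4.3.3 (lmFit, eBayes, 1 mean per group) was fitted to all 16355 genes, with Benjamini-Hochberg adjustment over them and calls at an adjusted p below 0.05. The fit was also run on simulated gene values with independent normal noise of the fitted spread. That run had no array effects or probe sets, so it cannot show how the fit performs on these arrays.

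The members and lists were chosen with earlier results of these data known. Named genes are called members whose arrays did not overlap, the first 5 by luciferase mean, those beside the threshold, role-list genes and called KRAB partners; others named were chosen after their values were seen. Alternatives changed the scaling, probe set filter and summary, spread model, block, symbols, level threshold and arrays. Protein features were not analysed here.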

Additional observations from a re-analysis of the deposited data

How the results depend on the processing

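Zfp280c rose under all 17 alternatives tried for it, with log2 differences from 0.94 to 1.24. Zfp618 rose under 14 of 17, Zfp418 under 7, Zfp609 under 6 and Zfp593 under 5. The counts of members called (5 for both hairpins, 4 for hairpin 1, 1 for hairpin 2, 0 between hairpins) depended on how probe sets were summarised. With no filter on dim probe sets 2 were called for both hairpins and 1 for hairpin 1. With the stricter filter (mean above 7.57) the counts were 20, 15 and 7, with the mean of probe sets 18, 10 and 10, and with median polish 22, 13 and 16, plus 1 between hairpins, Zfp609. With a spread model that uses trend and robust settings they were 12, 9 and 2. Among all genes the stricter filter, mean and median polish also called more for both hairpins (15%, 17.4% and 15.1%, against 7.89%). Centred arrays and quantile normalization each gave 2 that rose and 4 that fell for both hairpins. Leaving out each array in turn gave 2 to 5 for both hairpins, 1 to 4 for hairpin 1, 1 for hairpin 2 and 0 between hairpins. With a luciferase mean above 7.5 or 8.5 as the choice, 7 and 4 were called, and with a mean over all 7 arrays above 8, 6. Fitting only the arrays of the groups compared is the same fit for both hairpins. The shares of all genes called are not given here for the missing filter, spread model, level thresholds or left-out arrays. Those counts show how the calls shift, not how members compare with other genes. The cause of these shifts was not tested.

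The labels do not say what a replicate number marks, so the samples were not treated as paired. Deviations of same-numbered replicates had correlations from -0.26 to 0.08. With 2 arrays a hairpin, the deviations mirror each other. The value between hairpins is therefore the same for both numbers, -0.18, and would change sign with the numbers crossed. These correlations cannot decide on pairing. With the replicate number as a block, 1 member was called for both hairpins, 2 for hairpin 1 and 1 for hairpin 2. With the numbers of hairpin 2 crossed, an alternative chosen after seeing the data, the counts were 1, 1 and 1. The shares of all genes called with a block are not given here. Precision was limited by 2 or 3 arrays a group: the median half-width of a member's 95% interval was 0.20.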

Other observations

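Among the 109 Zfp genes at or below the level threshold, 7 rose after knockdown (6.42%, against 5.52% of all genes) and none fell (against 2.37%; limma, both hairpins). At an unadjusted p below 0.05, 24 were higher and 2 lower (22% and 1.83%, against 14.5% and 9.69% of all genes). These genes were chosen by a low mean on the same luciferase arrays that serve as the control, so the choice favours rises. Probe sets were kept on a mean over all 7 arrays, 4 of them knockdown, which can also favour rises. The 7 that rose in limma included Zfp560 (0.61, adjusted p 0.00498), Zfp677 (0.61, adjusted p 0.0276), Zfp521 (0.53, adjusted p 0.0064) and Zfp647 (0.44, adjusted p 0.0101). The rest of the 7 were Zfp182 (0.41, adjusted p 0.0294), Zfp608 (0.39, adjusted p 0.043) and Zfp748 (0.38, adjusted p 0.037), also in limma. Zfp521, a transcriptional regulator of neural and blood progenitors, had 6.65, 6.47 and 6.75 with luciferase, 7.18 and 7.14 with hairpin 1, and 7.12 and 7.17 with hairpin 2. All 4 knockdown arrays lay above the controls. Zfp560 had 6.19, 6.28 and 6.47, then 6.78 and 6.80, then 7.17 and 6.95, with hairpin 2 above hairpin 1. The luciferase values of Zfp521 and Zfp560 lay near the probe set filter of 6.02. Zfp677, with only 3 probe sets, overlapped, since luciferase array 2 stood at 7.21 and the others at 6.60 and 6.62.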
